A study of Triticum aestivum with 2 samples.

Results

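The 57804 seedling MHSs that lay 5 kb or more from any spikelet MHS made up 20.0% of the 289446 MHSs of the wheat seedling (95% Wilson interval 19.8 to 20.1). They were chosen by their measured positions alone: a seedling MHS was a member when its nearest spikelet MHS on the same sequence part was at least 5000 bp away, edge to edge. MHSs, or MNase hypersensitive sites, are stretches from which mild cutting by micrococcal nuclease (MNase) releases many short fragments of DNA. The seedling list came from wild-type, untreated seedlings of the bread wheat cultivar Chinese Spring, aged 10 days in the sample labels (the methods of the study give another age). The methods name above-ground parts where they describe the plants, and whole seedlings where they describe the libraries. The spikelet list came from wild-type, untreated spikelets of the same cultivar at the booting stage, and held 277119 MHSs. Both tissues were cross-linked with formaldehyde, and fragments of 40 to 100 bp were sequenced. Each list was called on 2 merged biological replicates, so there is 1 list per tissue. No value has a replicate check, no p-value was computed, and the intervals cover counting error only.

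Open chromatin holds most of the promoters and distal elements at which transcription factors bind, and its pattern differs between tissues as regulatory elements become free of nucleosomes or are packed again. Bread wheat is an allohexaploid with 3 subgenomes, A, B and D, and its large chromosomes have gene-rich ends and gene-poor, repeat-rich central parts. Spikelets are the flower-bearing units of the ear, while the seedling is a vegetative stage.

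The members outnumbered the other seedling MHSs that overlapped no spikelet MHS. Of the seedling MHSs, 182399 (63.0%) overlapped a spikelet MHS by at least 1 bp, 13373 (4.62%) lay under 500 bp from one without overlap, and 35870 (12.4%) lay from 500 bp to under 5 kb away. The distance of the members from the nearest spikelet MHS had a median of 23.4 kb and reached 1225 kb. From 5 to under 10 kb there were 14121 members (24.4%), from 10 to under 20 kb 12175 (21.1%), from 20 to under 50 kb 14208 (24.6%), from 50 to under 100 kb 8833 (15.3%), from 100 to under 200 kb 5680 (9.83%), and at 200 kb or more 2787 (4.82%). The limit of 5 kb fell in a small local rise of the counts. Per 500 bp there were 2305 seedling MHSs from 3500 to under 4000 bp, 1913 and 2074 in the next bins, 2152 from 5000 to under 5500 bp and 1907 in the bin after it. The 4059 members from 5 to under 6 kb away had a median width of 286 bp, a fold of 3.53 and a local background of 4.60 reads, and the 3987 MHSs from 4 to under 5 kb away had 294 bp, 3.42 and 5.44 reads. In width and background the members just inside the rule were thus nearer to the MHSs just outside it than to the most distant members, which had 242 bp and 2.64 reads.

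**Figure D1:**
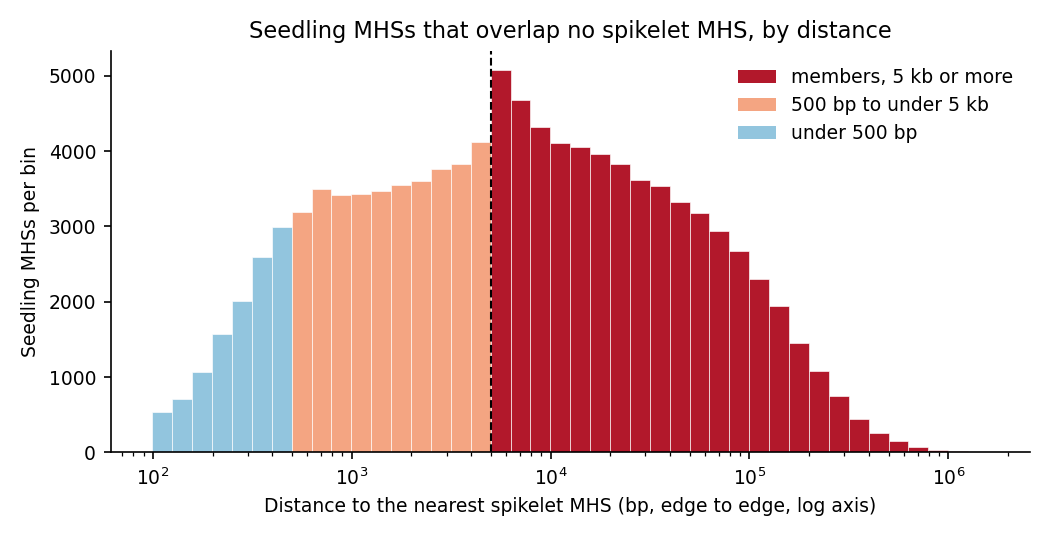
Number of seedling MHSs per bin (vertical axis) by the distance to the nearest spikelet MHS in bp (horizontal log axis), for the seedling MHSs that overlap none and lie over 99.8 bp away. The bins at 5000 bp and above (red, right of the dashed line) hold the 57804 members, and the counts fall to 16 in the last bin that holds any, from 5077 in the first red bin, which is above the 4119 of the bin before it.

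Members were narrower and had fewer reads than the other seedling MHSs. Their median width was 267 bp (95% order-statistic interval 266 to 268), against 379 bp (378 to 380) in the other seedling MHSs. The quartiles of width were 214 and 351 bp in the members, against 283 and 520 bp in the others. The narrowest width that the list holds, 200 bp, equals the read extension assumed here for the peak caller, so the narrow end of the widths is set by the calling. It was the width of 16.8% of the members and of 3.33% of the others. At the other extreme, 147 members (0.254%) were 1 kb or wider, against 6444 (2.78%) of the others. Among the others, this share was 3.46% in the MHSs that overlapped a spikelet MHS. It was 0.248% in those from 500 bp to under 5 kb away and 0.269% in those nearer without overlap, close to that of the members. The members together covered 17.8 Mb, or 15.0% of the 118.7 Mb covered by all seedling MHSs.

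The summits of the members had a median pileup of 15 reads, against 30 in the other seedling MHSs. The pileup and the local background were solved from the fold and p that the peak caller reports for each MHS, and the local background is the number of reads it expected at the summit. The median background was 3.14 reads in the members and 6.04 reads in the others. The lowest background of the list was 2.64 reads, the value that the peak caller uses across the genome where the surroundings hold fewer reads. It applied to 32.3% of the members (31.9 to 32.6) and to 2.41% of the others (2.35 to 2.47). Members were 76.6% of the seedling MHSs in the lowest decile of background and 0.826% in the highest decile. By pileup, they were 79.9% of the lowest decile and 0.342% of the highest.

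The fold, which is the pileup plus 1 over the background plus 1, set the members less apart. Its median was 3.57 in the members and 4.25 in the other seedling MHSs. Of the members, 90% had a fold between 2.85 and 4.97, against 2.78 to 8.24 in the others. A fold of 8 or more was held by 85 members (0.147%), against 4.69% of all seedling MHSs. Such a fold was held by 7.36% of the MHSs that overlapped a spikelet MHS. It was as rare as in the members among those without overlap, at 0.103% from 500 bp to under 5 kb away and 0.172% nearer. The share with a q no higher than 1e-05 was 27.6% in the members (27.2 to 28.0) and 75.8% in the others, against 66.1% of all seedling MHSs. Both shares are a description only, since the positions of called peaks chose the members. A q above 0.01, the calling threshold that the methods state, was held by 4169 members (7.21%) and 1988 others (0.858%). Members were most frequent in the third decile of fold, at 33.9%, and rarer below it, at 18.8% of the lowest decile, as well as in the highest decile, at 1.04%.

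Against the other seedling MHSs that overlapped no spikelet MHS, the members differed more in reads and background than in median fold. The median pileup was 15 reads in the members, 23 in the MHSs from 500 bp to under 5 kb away and 22 in those nearer. The median background was 3.14 reads in the members, 5.94 in the first of those classes and 5.52 in the second. The median fold was 3.57 in the members, and 3.39 and 3.44 in these classes. Low folds were rarer in the members, with 20.5% at or below 3.2, against 37.9% and 35.5% in these classes. The calling limits how low a fold can be where the background is low. At the lowest background the smallest fold was 2.75, both in the members and in all other seedling MHSs. Over all backgrounds it was 1.83 and 1.81 in these classes. In width the members, at 267 bp, were below the 290 and 297 bp of these classes, and all 3 were below the 406 bp of the MHSs that overlapped a spikelet MHS.

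**Figure D2:**
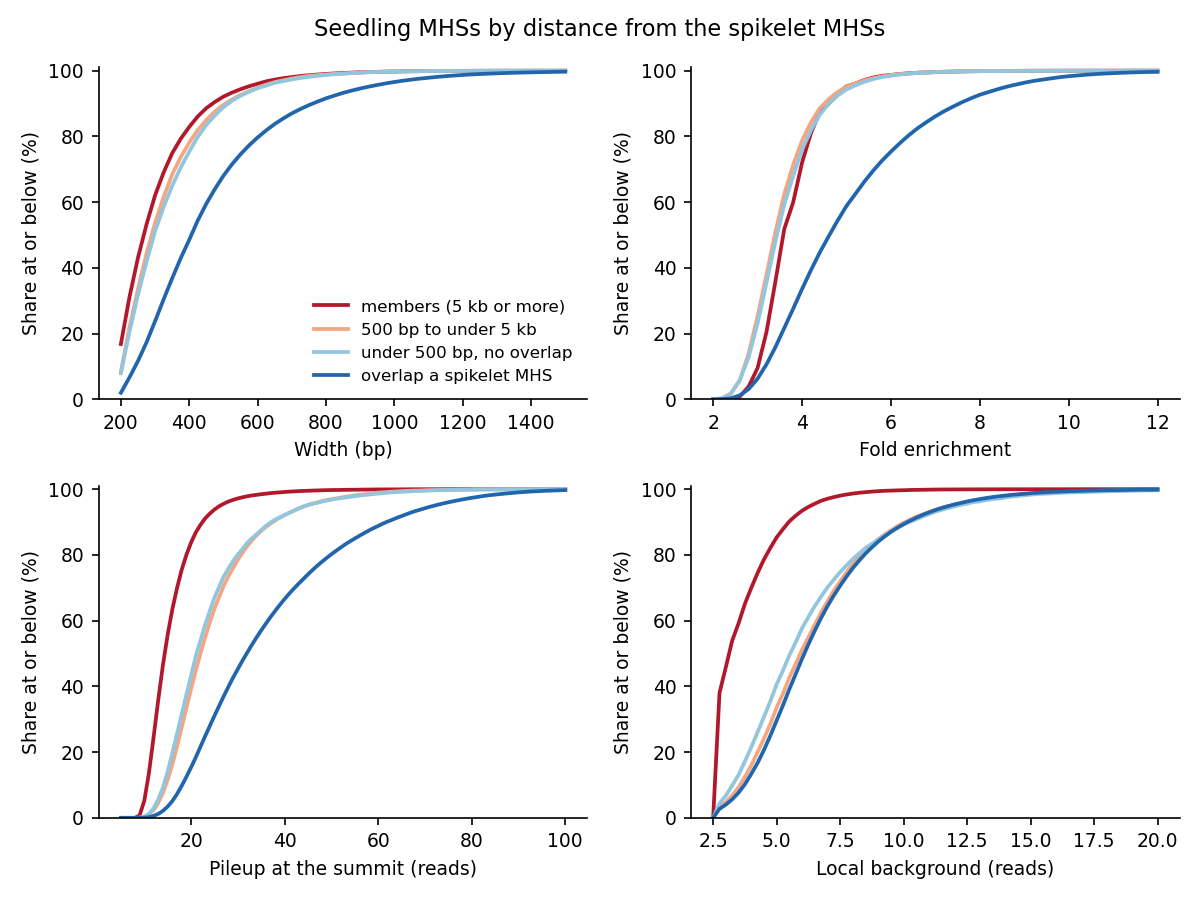
Cumulative share of seedling MHSs (vertical axes, %) at or below a given width in bp, fold enrichment, pileup in reads and local background in reads, for the members (red) and for 3 classes nearer to a spikelet MHS. The members have the leftmost curves of width, pileup and background, with medians of 267 bp, 15 reads and 3.14 reads. At low folds their curve lies below those of the other MHSs that overlap no spikelet MHS. At a fold of 3.2 it is at 20.5%, against 37.9 and 35.5%, and at a fold of 5 the 3 curves are close.

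The local background is read from the surroundings of a peak, so MHSs with no other seedling MHS within 5 kb were also compared. Such isolated MHSs were 46981 of the members (81.3%) and 34.8% of the others. The isolated members had a median pileup of 14 reads, a background of 2.96 reads and a width of 263 bp. The 70643 isolated MHSs that overlapped a spikelet MHS had 30 reads, a background of 5.18 reads and 437 bp. The median fold was 3.57 in the isolated members and 5.12 in these. Isolated MHSs from 500 bp to under 5 kb from a spikelet MHS had medians of 19 reads, a background of 4.64 reads and 291 bp. Isolated MHSs nearer without overlap had 18 reads, a background of 4.26 reads and 299 bp. The lower reads, background and width of the members were thus also present among isolated MHSs. These differences were smaller against the isolated MHSs without overlap than against those with it.

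Within the members, width, pileup and background fell with the distance from the spikelet MHSs, while the median fold did not. From the class of 5 to under 10 kb to that of 200 kb or more, the median width fell over the 6 distance classes as 287, 278, 266, 251, 244 and 242 bp. The median pileup was 18, 15, 14, 14, 13 and 13 reads in the same order. The share at the lowest background rose from 13.8% in the nearest class to 52.0% in the farthest. The share with a q of 1e-05 or lower fell from 35.7% to 17.7%. The median fold was 3.57 in 5 of the 6 classes and 3.61 from 10 to under 20 kb. This value belonged to 3645 members (6.31%), all with a pileup of 12 reads over the lowest background, and was the most frequent fold of a member. The range of the fold narrowed with distance. From the nearest class to the farthest, its 5th percentile went from 2.75 to 2.99 and its 95th from 5.11 to 4.67. The limit that the calling sets on low folds at a low background applies to the 5th percentile.

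The 5 members with the largest fold had folds of 11.4 to 12.1 over backgrounds of 2.64 to 4.02 reads. The largest fold, 12.1, belonged to a member of 324 bp on part 1 of chromosome 6D, from 7976347 to 7976670 (positions within the sequence parts of version 1.0 of the IWGSC reference). It had a pileup of 43 reads and lay 13.3 kb from the nearest spikelet MHS. Ranked among all seedling MHSs, this fold was only at place 596. The next, with a fold of 11.8 and 42 reads, was a member of 320 bp on part 2 of 7B from 184093433 to 184093752. A member of 307 bp on part 2 of 2A, from 84664060 to 84664366, had a fold of 11.5 and 41 reads, and had no other seedling MHS within 121 kb. All 3 had the lowest background of the list. Chromosome 1D held the remaining pair of the 5 largest folds, both 11.4. These lay on part 1 from 236081993 to 236082673, with 44 reads, and from 42068133 to 42068699, with 56 reads. They were 5.51 and 6.05 kb from a spikelet MHS, close to the limit of the rule. The 85 members with a fold of 8 or more lay on 19 of the 21 chromosomes and had a median width of 512 bp. Their median background was 3.82 reads, above the 3.14 of all members. Of the 85, 23 had no other seedling MHS within 20 kb, a lower share than the 42.3% of all members. Their median distance to the nearest seedling MHS was 8101 bp, against 14776 bp over all members.

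The 3 widest members had folds of 3.55 to 5.74, against a median of 3.57 and a 95th percentile of 4.97 over all members. The widest, of 1941 bp, lay on part 1 of 1B from 226711014 to 226712954 with a fold of 5.74, and was 351 kb from the nearest spikelet MHS. On part 1 of 2B, a member of 1840 bp from 1216439 to 1218278 had a fold of 3.55 over a background of 10.8 reads, with another seedling MHS 0.255 kb away. The third widest, of 1669 bp with a fold of 4.81, lay on part 2 of 2B from 65345097 to 65346765. The 3 members farthest from a spikelet MHS lay between 36.2 and 43.0% of the length of their chromosome. A member of 211 bp on part 1 of 1A, from 215159205 to 215159415, was 1225 kb away with a fold of 4.12 and 14 reads. The others were neighbours on part 1 of 2B, from 344404351 to 344404747 and from 344412781 to 344413003, at 1201 and 1209 kb with folds of 4.96 and 3.88. These 2 members were 8.03 kb apart.

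Most members stood alone in the seedling list. The distance to the nearest other seedling MHS had a median of 14776 bp in the members (95% order-statistic interval 14577 to 14989), against 2708 bp (2684 to 2735) in the others. The rule shapes this value, since a seedling MHS that overlaps a spikelet MHS can hardly lie within 5 kb of a member. No other seedling MHS lay within 20 kb of 24465 members (42.3%), against 9.51% of the others, and none within 100 kb of 5569 members (9.63%), against 1.38% of the others. For 4312 members (7.46%), neither list had another MHS within 100 kb. The nearest seedling MHS was itself a member for 45.0% of the members, at a median of 9203 bp, and one that overlapped a spikelet MHS for 44.1%, at a median of 19954 bp. To the nearest other member, the median distance was 53530.5 bp.

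**Figure D3:**
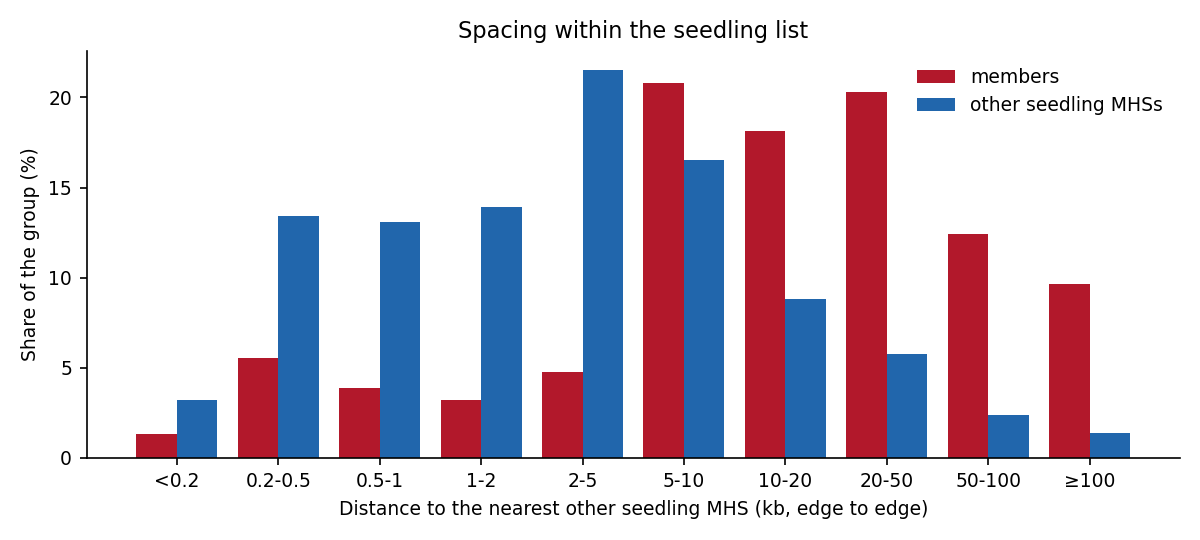
Share of the members (red) and of the other seedling MHSs (blue), in % (vertical axis), by the distance to the nearest other seedling MHS in kb (horizontal axis, classes). The largest class of the members is 5 to 10 kb, with 20.8%, and the largest of the others is 2 to 5 kb, with 21.5%.

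Clusters of members were few and small. Neighbouring members were joined where they were at most 5 kb apart and no other seedling MHS lay between them. By this definition 47908 members (82.9%) were alone, and 4347 pairs held another 15.0%. The clusters of 3 or more numbered 390 and held 1202 members, or 2.08% (1.97 to 2.20), and all 21 chromosomes had some. Joined in the same way, 28.9% of the other seedling MHSs were in clusters of 3 or more, the largest of which held 12. The numbers and the definition shape this comparison. There were 4.11 members per Mb, against 16.5 other seedling MHSs, and any of the latter ended a cluster of members. The clusters of members spanned 1037 to 11685 bp, with a median of 3148 bp. Of the 390, 186 (47.7%, 42.8 to 52.6) lay in the outermost 10% at either end of a chromosome. So did 46.1% of the members in pairs and 33.2% of those alone, against 35.5% of all members. Members in clusters had more reads and background than those alone, with medians of 19 and 14 reads and of 4.70 and 2.98 reads of background, but about the same fold, 3.52 and 3.57.

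The largest cluster held 7 members, from 237546961 to 237556711 on part 2 of 5A, at 97.3% of the chromosome length. Its members were 214 to 521 bp wide with folds of 2.38 to 4.33, had a median background of 8.74 reads, and lay at least 54.3 kb from a spikelet MHS. Next was a cluster of 5 members from 275696884 to 275708062 on part 1 of 5B, at 38.7% of the length, with folds of 2.57 to 4.61. Of the 26 clusters of 4, the shortest was on part 1 of 2A from 281117008 to 281119023, a span of 2016 bp with folds of 2.57 to 3.46. The next shortest spanned 2139 bp on part 1 of 7A, from 20034097 to 20036235, and 2317 bp on part 1 of 1B, from 69726787 to 69729103. The median background of these 3 clusters was 5.45, 2.93 and 2.82 reads.

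The members were spread over many stretches without a spikelet MHS. Between neighbouring spikelet MHSs there were 129456 intervals of 10.2 kb or more, the shortest that can hold a member. A member lay in 37149 of them (28.7%), and 57778 of the 57804 members were in such intervals. The intervals with a member had a median length of 115 kb, against 37.4 kb for those with none. The share of intervals with a member was 7.60% at 10.2 to under 20 kb and 80.3% at 500 kb or more. Per Mb of the sequence that the rule allows within them, the order was the opposite, with 19.4 members in the shortest class and 2.83 in the longest. Most members shared their interval, since 33455 (57.9%) were in intervals with 2 or more members, but only 727 intervals had 5 or more. The 5 intervals with the most members held 14 to 19. The one with 19, chosen after its values were seen, ran from 326987679 to 329711352 on part 1 of 6B, over 2724 kb and with no other seedling MHS. An interval on part 2 of 7B from 294677984 to 295066026 held 14 members in 388 kb, or 36.1 per Mb, and was also chosen after its values were seen.

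The subgenomes differed slightly in their share of members. Members were 18.4% of the seedling MHSs on subgenome D (95% Wilson interval 18.2 to 18.7), 21.1% on B (20.9 to 21.4) and 20.2% on A (20.0 to 20.5). In each of the 7 homoeologous groups, the D chromosome had the lowest share of the 3. The B chromosome had the highest in 6 groups, and in group 4 it was 4A. Among the chromosomes, 6B had the highest share, 22.6% (21.9 to 23.3), closely followed by 4A, also 22.6% (21.9 to 23.3). The lowest was that of 4D, 17.5% (16.8 to 18.3), with 2D at 17.5% (16.9 to 18.1), so neither the highest nor the lowest could be told from its neighbour within counting error. The number of members ranged from 1743 on 4D to 3629 on 3B.

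Per Mb, D and A were closer in members than in the other seedling MHSs, while B and A were not. There were 4.21 members per Mb on D, 4.15 on B and 3.99 on A, a ratio of 1.05 for D over A (1.03 to 1.08). The other seedling MHSs numbered 18.7 per Mb on D, 15.5 on B and 15.7 on A, a ratio of 1.19 for D over A (1.18 to 1.20). The ratio of B over A was 1.04 (1.02 to 1.06) in the members and 0.987 (0.977 to 0.996) in the others. Only sequence 5 kb or more from a spikelet MHS can hold a member, and this was 85.0% of D and 87.2% of each of B and A. Per Mb of it, the members numbered 4.95 on D, 4.76 on B and 4.57 on A. By this measure the D chromosome had the most members in 6 of the 7 homoeologous groups, and per Mb of chromosome in 3. The ratio of D over A depended on the distance in the rule and was 0.966 (0.939 to 0.993) for members 20 kb or more away. The medians of width, fold and pileup of the members were close on the 3 subgenomes, with 272, 265 and 265 bp on D, B and A, and a fold of 3.57 and 15 reads on each.

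**Figure D4:**
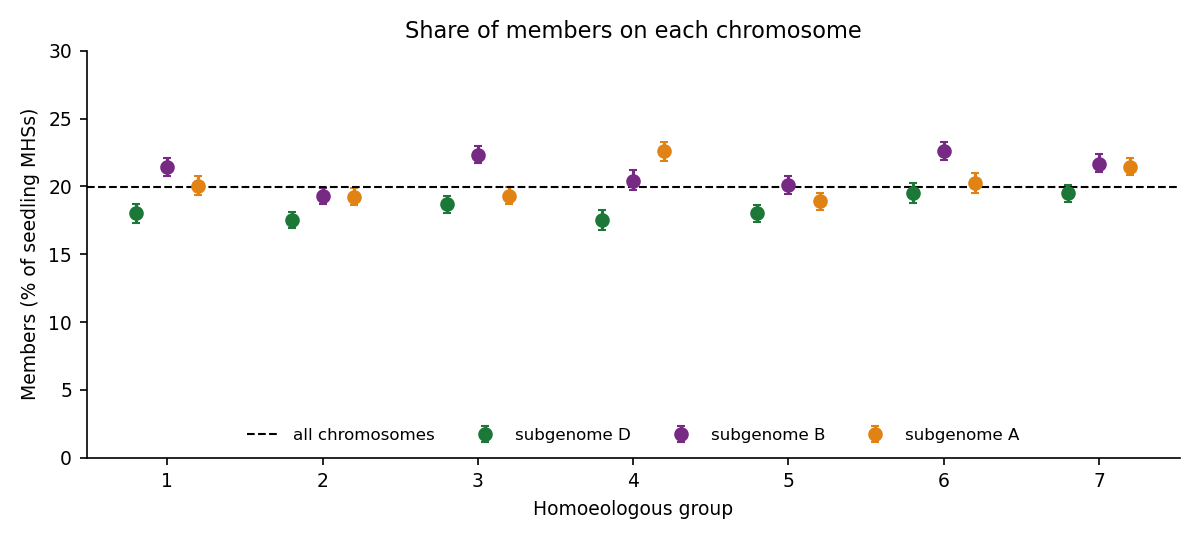
Share of members among the seedling MHSs (vertical axis, %) on each chromosome, by homoeologous group (horizontal axis) and subgenome (colours), with 95% Wilson intervals as bars and the share over all chromosomes, 20.0%, as a dashed line. The D chromosome is the lowest in each group, and the values run from 17.5% on 4D to 22.6% on 6B.

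Along the chromosomes, the members were densest at the ends but made up the largest share of the seedling MHSs in the central part. In bins of 5% of the chromosome length, from the last MHS on each part, the members numbered 8.36 per Mb in the first bin and 9.21 in the last. The lowest density was 2.76 per Mb at 55 to 60% of the length. The other seedling MHSs fell more, to 6.74 per Mb at 35 to 40%, against 28.2 in the first bin and 31.8 in the last. Members were 32.9% of the seedling MHSs at 35 to 40% of the length (31.8 to 34.0), against 22.9% in the first bin, 22.5% in the last and 15.6% at 60 to 65%. The rule shapes this share, since more sequence lies 5 kb or more from a spikelet MHS where these are sparse. Spikelet MHSs numbered 8.30 per Mb at 35 to 40%, against 34.9 in the first bin and 38.4 in the last. The sequence that can hold a member was 93.7, 76.1 and 73.9% of these bins. On all 21 chromosomes the bin with the highest share lay between 25 and 55% of the length. It ranged from 38.4% on 5A, at 30 to 35%, to 58.8% on 6A, at 45 to 50%. The lowest share in a bin was 9.91%, on 2D at 15 to 20%.

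The density of members per Mb of sequence 5 kb or more from a spikelet MHS followed the same course. It was 11.0 in the first bin, 12.5 in the last and 3.06 at 55 to 60%, with a slight rise to 3.86 at 40 to 45%. Between 30 and 50% of the length the 9445 members had a median width of 251 bp and 14 reads over a background of 2.76, and 88.9% had no other seedling MHS within 5 kb. The 20499 members in the outermost 10% at either end had 281 bp and 16 reads over 3.68, and 75.7% were isolated in this way. The median distance to a spikelet MHS was 54935 bp in the central group and 16349 bp at the ends.

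Of the members, 35.5% lay in the outermost 10% at either end (35.1 to 35.9), against 33.2% of the other seedling MHSs (33.0 to 33.4) and 20% of evenly placed ones. The share of the members was the higher one on 15 of the 21 chromosomes. The extremes were 3B, with 40.7% of the members and 31.8% of the others, and 4D, with 26.6% of the members and 40.3% of the others. The order depended on the distance in the rule. For members 10 kb or more away, the ends held 32.7% of the members and 33.8% of the others, and for those 20 kb or more away 27.6% and 34.4%. By distance class, the share at the ends was 43.9% from 5 to under 10 kb, 46.0% from 10 to under 20 kb and 6.03% at 200 kb or more. The larger share in the central part was present at each distance but also moved with it. At 30 to 50% of the length, members were 34.4% of the seedling MHSs with a distance of 2 kb, 30.5% with 5 kb, 26.5% with 10 kb and 22.6% with 20 kb. Over the whole length they were 25.2, 20.0, 15.1 and 10.9% in the same order. The central share thus exceeded the whole by a larger factor at the longer distances. The rule shapes this factor and the shares at the ends by distance. Sequence far from any spikelet MHS lies more often in the central part, where spikelet MHSs are sparser. With seedling MHSs of a q of 1e-05 or lower only, members were 10.4% in this stretch, against 8.33% over the whole length.

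**Figure D5:**
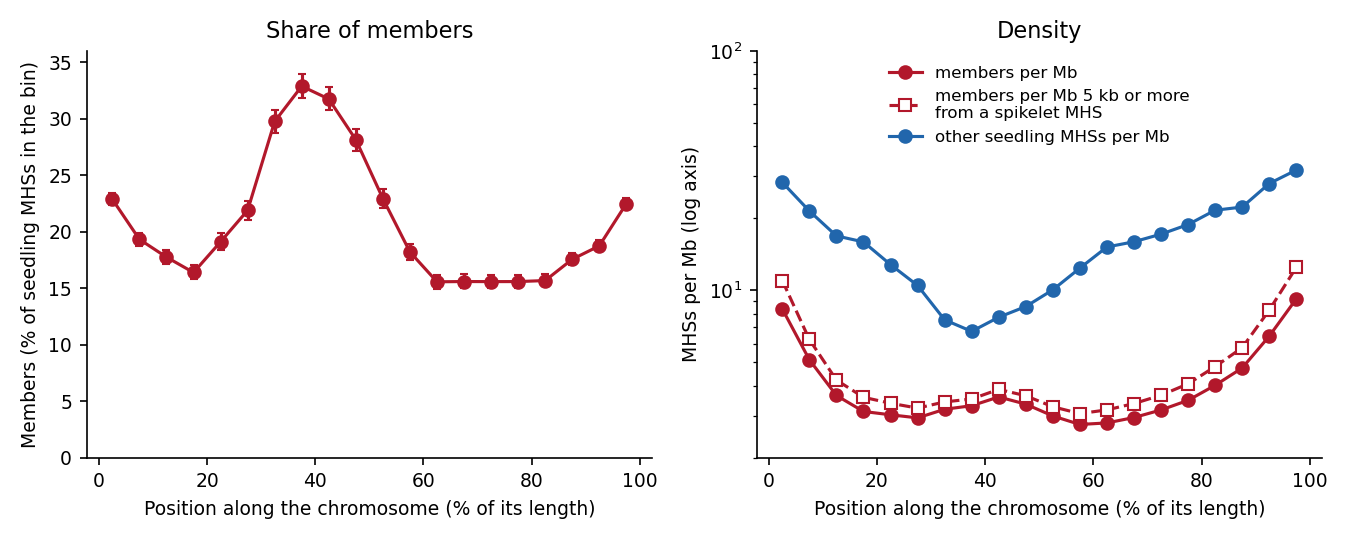
Left, members as a share of the seedling MHSs (vertical axis, %) in bins of 5% of the chromosome length over all 21 chromosomes, with 95% Wilson intervals, and right, MHSs per Mb (vertical log axis) for the members (red), the members per Mb of sequence 5 kb or more from a spikelet MHS (dashed) and the other seedling MHSs (blue). The share peaks at 32.9% at 35 to 40% of the length, where the density of the other MHSs is lowest at 6.74 per Mb.

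With the lists exchanged, the same rule gave 35745 spikelet MHSs 5 kb or more from a seedling MHS, or 12.9% of the spikelet list (12.8 to 13.0). The median width was 267 bp in the seedling members and 266 bp in these. The seedling members had a median fold of 3.57 and 15 reads, and the spikelet MHSs a fold of 3.92 and 19 reads. A fold of 8 or more was held by 0.147% of the seedling members and by 2.87% of the distant spikelet MHSs, against 6.31% of all spikelet MHSs. The share with a q no higher than 1e-05 was 27.6% in the seedling members and 55.0% in the distant spikelet MHSs, and the lists as a whole also differed, with 66.1% of all seedling MHSs and 81.1% of all spikelet MHSs. At 35 to 40% of the chromosome length, members were 32.9% of the seedling MHSs, and distant spikelet MHSs were 18.6% of the spikelet MHSs. These differences between the lists were not tested.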

How the data were processed

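MH-seq libraries of seedling and spikelet were analysed from the 2 peak lists deposited. Per the methods, the authors trimmed with fastp, aligned with bowtie2 against the IWGSC reference (version 1.0), discarded duplicates with Sambamba and reads with a mapping quality under 20, merged 2 replicates per tissue and called peaks with MACS2 2.0. The deposited score is the whole part of 10 times the −log10 q, the fold is the authors' ratio over the local background, and the authors' −log10 p-value and q-value refer to the summit. Depth per list was recovered from the lowest background as 184.8 M reads (seedling) and 182.3 M reads (spikelet), with a read extension of 200 bp and a genome of 14 Gb assumed. The lists give no other measure of depth.

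Distances were counted as bases between peak edges on the same sequence part. The list places peaks on 21 chromosomes in 42 parts, and the end of the last peak of either list was taken as the length of a part. Pileup and background were solved from the fold and p of each peak, and the pileup came out whole, within 0.001 of the −log10 p, for 100% of the seedling MHSs. Shares have 95% Wilson intervals, medians have order-statistic intervals and ratios of counts have exact binomial intervals. No test was run, since each tissue has 1 list. The members, the rule and the measures were chosen with earlier results of these data known. The MHSs named in the text are the 5 members with the largest fold, the 3 widest, the 3 farthest from a spikelet MHS and the 5 clusters with the most members, with ties broken by the shorter span. Other distances, q thresholds, cluster definitions, widths of the ends and units of density were tried as alternatives. The functions were tested on simulated data. Gene annotation of this build and the sequences of the members were not used here. The scripts ran under Python 3.11.15 with scipy 1.17.1 for intervals, pandas 2.3.3 and numpy 2.4.6 for tables, and matplotlib 3.10.9 for plots.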

Additional observations from a re-analysis of the deposited data

How the results depend on the processing

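Of 99 values under alternative settings, 34 stayed within the 95% interval of the main value, or within 1.5 times the number of members, and 65 moved outside. The intervals are narrow because the lists are long. Members were narrower, lower in fold and a lower share on subgenome D under each distance and q threshold tried. The reads behind each list set which weak peaks were called, and the signal of the spikelet at the members is not known from the lists.

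A distance of 2 kb gave 25.2% of the seedling MHSs as members, a width of 272 bp, a q of 1e-05 or lower in 31.3%, 10201 bp to the nearest seedling MHS, 2.20% in clusters, 1.09 for D over A, 36.6% in the ends and 5.58 members per Mb of sequence at that distance. A distance of 10 kb gave, in the same order, 15.1%, 261 bp, 25.0%, 22767 bp, 1.86%, 1.01, 32.7% and 3.95. A distance of 20 kb gave 31508 members, then 10.9%, 255 bp, 22.7%, 35620 bp, 1.55%, 0.966, 27.6% and 3.38. Measured between summits, members were 20.5%, with a q of 1e-05 or lower in 28.0%, 14209 bp to the nearest seedling MHS and 4.85 members per Mb.

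With both lists limited to a q of at most 0.01, members were 19.0%, with a fold of 3.65, a q of 1e-05 or lower in 29.8%, 14534 bp to the nearest seedling MHS, 36.3% in the ends and 4.42 members per Mb. With both limited to 0.001, they were 17.0%, with 272 bp, a fold of 3.85, a q of 1e-05 or lower in 38.5%, 15050.5 bp, 1.64% in clusters, 1.08 for D over A, 37.5% in the ends and 3.61 per Mb. Limiting the seedling list alone to 1e-05 left 15950 members (8.33%), with 306 bp, a fold of 4.40, 18125 bp, 0.708% in clusters, 1.12 for D over A, 1.11 for B over A, 40.9% in the ends and 1.31 per Mb.

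The share in clusters was 1.22% with a gap of 2 kb, 4.87% with 10 kb, 17.1% for clusters of 2 or more and 0.0208% for 5 or more. The share in the ends was 35.0% without the outermost 1 Mb of each sequence part, 21.4% for ends of 5%, 54.3% for ends of 20% and 37.4% in base pairs. The density of D over A was 1.08 in base pairs and 1.08 per Mb of sequence 5 kb or more from a spikelet MHS. The distance to the nearest other member was 53530.5 bp. No paired analysis was possible because the replicates of a tissue were merged into 1 list, and for the same reason no replicate could be left out.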

Other observations

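Adjoining members at close range lay nearer to each other than adjoining pairs of other seedling MHSs. Over all members the order was the reverse, with a median of 14776 bp to the nearest other seedling MHS, against 2708 bp in the others. Among the 5159 gaps of at most 5 kb between adjoining members, the median was 704 bp and 38.3% were under 500 bp. Among the 89581 such gaps between adjoining other MHSs, the median was 1388 bp and 22.1% were under 500 bp. The shortest gap was 140 bp in both groups. Between summits, distances of 500 to 600 bp were the most frequent bin of 100 bp in the members (9.23% of the gaps), and 700 to 800 bp in the others (5.13%). Close spacing was not particular to the members. Where a seedling MHS of any class lay within 5 kb, the median distance to the nearest was 766 bp in the members. It was 1204 bp in the MHSs that overlapped a spikelet MHS and 1440 bp in those from 500 bp to under 5 kb away. In those nearer without overlap it was only 341 bp. The summit lay in the middle one of 3 equal stretches of the peak in 56.6% of the members and 68.5% of the other seedling MHSs. Members are the narrower of these groups, and the part of peak width in these values was not tested.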
